A study of Mus musculus with 312 samples.

Results

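Within the unmarked adult basal cells of the mouse mammary gland, cells in which mitochondrial genes took a larger share of the read pairs were compared with cells in which they took a smaller one, and the question was which nuclear transcripts persisted and which were scarce in the former. Of 125 cells titled as adult basal cells without the added "(2)", 82 had at least 10000 read pairs outside mitochondrial genes and the Rpl and Rps genes of the cytosolic ribosome. The 82 cells were chosen by their own measured read totals and split by their own mitochondrial share of all read pairs, so both values describe the sides and are no result. In 22 cells, called the high side, the share was above 33.1%, and in 60 cells, called the low side, it was at or below that value. The whole series held 312 single basal cells: these 125, 112 further adult cells whose titles carry "(2)", called marked here, and 75 cells from pregnant mice. All came from FVB/NJ mice, with no treatment and no transgene named. The labels give the age of the 125 cells only as adult, and the study's methods describe 10-week-old females. Adult basal cells were sorted as lineage-negative, CD29 high and CD24 positive, after dead cells had been gated out with propidium iodide. The cells from pregnant mice are titled basal, while the study describes its C1 cells from mid-pregnancy as total epithelial cells. Cells were captured on the Fluidigm C1 system, which made cDNA from poly(A)+ RNA. No label ties a cell to a mouse, a sort or a capture plate, so each side counts as 1 sample of pooled cells. There is then no replicate of a side, and values are given as descriptions with no p-value.

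Messenger RNA of the nuclear genome is spliced in the nucleus and translated in the cytoplasm, while some RNAs never leave the nucleus. Among those that stay are the long noncoding RNAs Malat1 and Xist and the small nucleolar RNAs (snoRNAs), which are cut out of introns of host genes and guide chemical modification of other RNAs. Mitochondria carry a small genome of their own, transcribed inside the organelle, whereas most respiratory chain proteins come from nuclear genes. A high mitochondrial share is in common use as a filter for damaged cells in single-cell work. Basal cells of the mammary gland are contractile myoepithelial cells, known by keratins 5, 14 and 17 and by smooth muscle proteins.

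Of the 12 genes named below as higher in high cells 3 were snoRNAs, and the sequences of these and of Snord22 are given because the result turns on them. They are GENCODE M21 transcripts on GRCm38, written 5′ to 3′ as DNA. Capitals mark ACA or CTGA where it stands within the last 12 bases, the places of the ACA box of H/ACA snoRNAs and of the D box of C/D snoRNAs. Searched on the RNA's own strand only, ACA stood there in 48.2% and CTGA in 29.9% of all 1483 annotated snoRNAs.
Snora81: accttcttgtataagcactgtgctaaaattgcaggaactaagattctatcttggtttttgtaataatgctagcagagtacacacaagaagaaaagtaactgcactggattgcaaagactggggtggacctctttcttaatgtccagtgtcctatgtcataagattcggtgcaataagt
Snora75: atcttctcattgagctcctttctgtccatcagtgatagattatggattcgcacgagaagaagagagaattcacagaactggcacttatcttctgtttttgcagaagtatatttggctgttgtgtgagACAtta
AF357399: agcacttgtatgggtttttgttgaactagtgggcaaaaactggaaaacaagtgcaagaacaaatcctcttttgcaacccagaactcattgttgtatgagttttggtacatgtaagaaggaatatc
Snord22: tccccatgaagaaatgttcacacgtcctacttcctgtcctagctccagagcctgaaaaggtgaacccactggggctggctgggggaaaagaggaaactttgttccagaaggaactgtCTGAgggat

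Snora81 lies on the plus strand at chr16:23110756-23110933, inside Eif4a2, the gene of a translation initiation helicase. Snora75 lies on the minus strand at chr1:86351169-86351301, inside Ncl, the gene of nucleolin. AF357399, which the annotation lists only as a snoRNA, lies on the plus strand at chr7:28351508-28351632 inside Rps16, a ribosomal protein gene, and Snord22 on the plus strand at chr19:8725866-8725991 inside Snhg1, a noncoding host. Each has the strand of its host. Of the host transcripts that span them, 1 of 14 of Eif4a2, 1 of 4 of Ncl, 0 of 3 of Rps16 and 4 of 12 of Snhg1 have an exon over the snoRNA, and the others have an intron there. Reads from a snoRNA and from a retained intron of its host cannot be told apart in gene counts. The counting annotation gave Snora81, Snora75 and AF357399 shorter exons, of 164, 116 and 94 bases.

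The mitochondrial share ran from 33.9% to 95.5% on the high side, with a median of 75.1%, and from 1.31% to 32.8% on the low side, with a median of 14.2%. The cells nearest the cut were cell 164 at 32.8% and cell 141 at 33.9%, so the cut runs through a continuous range. Of the 22 high cells, 5 lay at or below 50%, 6 between 50% and 75%, and 11 above 75%. Total read pairs overlapped between the sides, at 29165 to 394653 in high cells and 13849 to 459260 in low cells. Read pairs outside mitochondrial and ribosomal protein genes were fewer in high cells, with a median of 28060 against 97621. Each cell was therefore thinned at random to 10000 such read pairs, and all levels below are thinned reads per cell, which hold shares and not amounts: fewer transcripts of a gene and more of all others cannot be told apart. Levels are not divided by gene length, so they are compared between cells and not between genes.

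**Figure D1:**
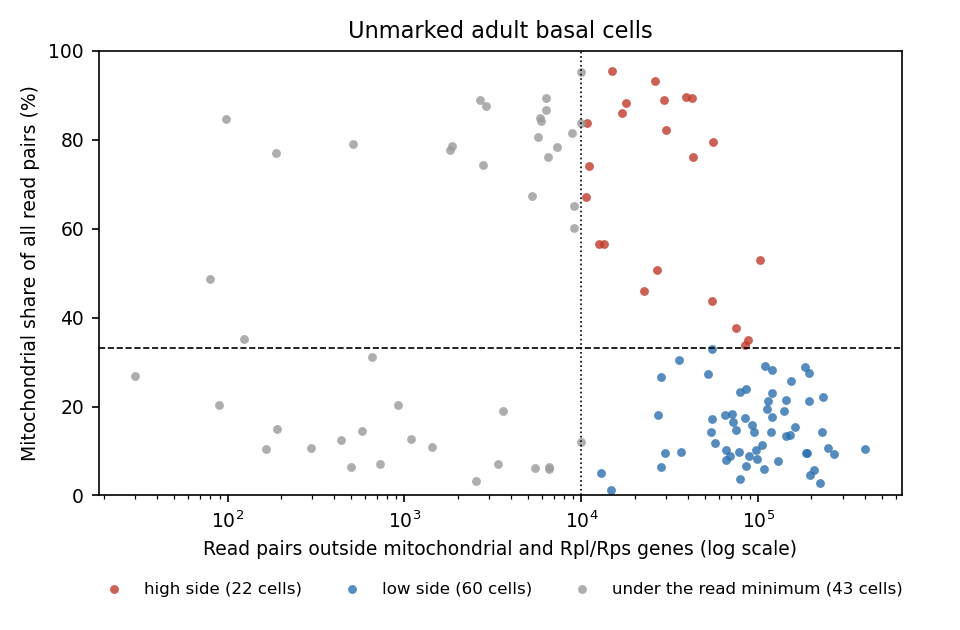
Mitochondrial share of all read pairs (%, y axis) against read pairs outside mitochondrial and Rpl/Rps genes (log scale, x axis) for the 125 unmarked adult cells, 1 point per cell. The dashed line marks the cut at 33.1% and the dotted line the minimum of 10000 read pairs, which left out 43 cells; the 22 high cells reach from 33.9% to 95.5%.

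The basal label was checked against 11 core basal genes. At least 6 of them had a read in 21 of 22 high cells (95.5%, exact 95% interval 77.2 to 99.9%) and in 54 of 60 low cells (90.0%, 79.5 to 96.2%). Markers of other cell types were not alike on both sides. At least 3 of 18 luminal genes had a read in 12 of 22 high cells (54.5%, 32.2 to 75.6%) and in 14 of 60 low cells (23.3%, 13.4 to 36.0%), although Krt19, Cldn3, Cldn4, Cldn7, Elf5 and Esr1 had none in any high cell. At least 3 of 8 endothelial genes had a read in 4 high cells and 1 low cell, of 8 fibroblast genes in 4 and 4, of 8 Schwann genes in 2 and 1, of 8 immune genes in 2 and 0, and of 8 pericyte genes in 1 and 0. Taken as 3 counts over 60 low cells, a count of 0 leaves room for a share of 5.00%, and the exact upper limit is 5.96%. Summed luminal reads ran from 0 to 126 with a median of 16.5 in high cells and from 0 to 448 with a median of 5.00 in low cells. In all, 12 high and 19 low cells held at least 3 markers of some other type, and without them the median log2 ratio of all genes was -0.90. Values without them are given below for some genes and lists, not for all. How far such markers take part in the differences below was not tested.

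After thinning, a high cell showed a median of 1532 genes (95% rank interval 1111 to 2488, range 701 to 3438) and a low cell 1254 (1098 to 1417, range 645 to 2659). The ranges overlapped over most of their width. High cells were therefore not poorer in detected genes at equal depth, although before thinning the medians were 2386 and 2676. Without cells holding 3 markers of another type the thinned medians were close, at 1158 in high cells and 1142 in low cells. A marker counted when it had a read, so that choice of cells is itself tied to the number of genes detected.

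Across 3404 nuclear genes with a mean of at least 0.5 thinned reads per cell, 736 genes (21.6%) had a mean at least 2-fold higher and 1178 genes (34.6%) a mean at least 2-fold lower in high cells, as a ratio of means with 0.1 read added to each. The median log2 ratio of all genes was -0.33 (95% rank interval -0.40 to -0.26). These shares are the background against which each group of genes below is read. A mean of few cells can be carried by 1 of them: in 356 of the 736 higher genes (48.4%), 1 high cell held at least 50% of the high-side reads, and in 328 of the 1178 lower genes (27.8%) the same held for 1 low cell. With the highest cell of each side left out gene by gene, 462 of the 736 and 1008 of the 1178 were still past 2-fold. Averaged as log2(reads + 1) per cell, which gives such cells little weight, 90 genes were 2-fold higher and 46 lower. The genes named as most different were required to hold without the highest cell of either side.

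**Figure D2:**
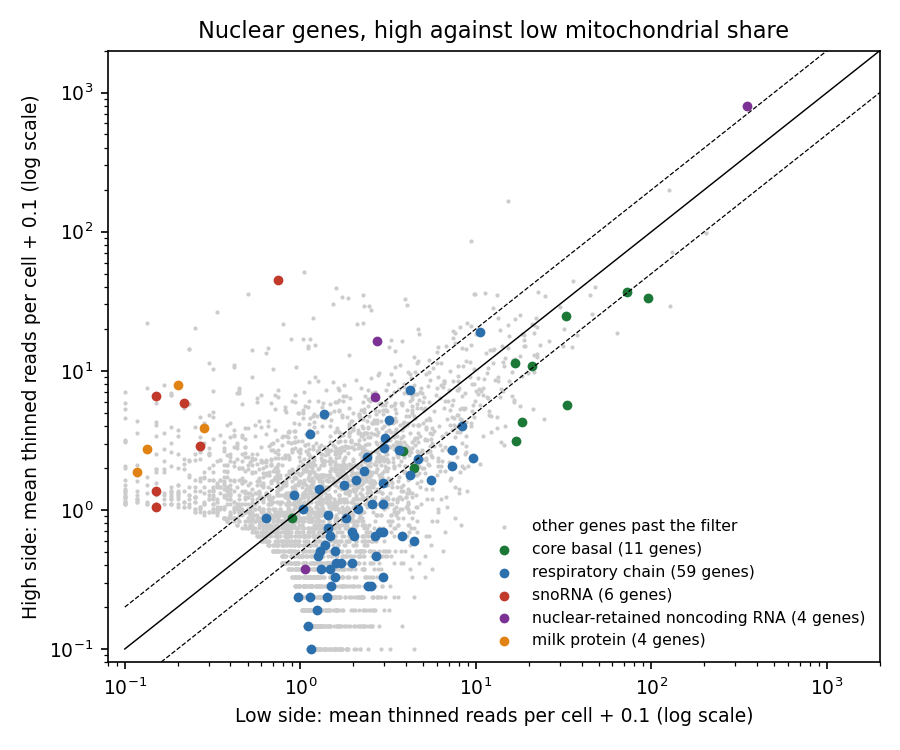
Mean thinned reads per cell plus 0.1 on the low side (x axis) and the high side (y axis), both on log scales, 1 point per gene past the filter. The solid line marks equal means and the dashed lines 2-fold; the 6 snoRNA genes and 4 milk protein genes lie far above the lines, most respiratory chain genes below equality, and Malat1 stands at 799 against 348 reads.

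snoRNA genes gave a mean of 65.8 thinned reads in high cells and 2.30 in low cells. Over all 123 snoRNA genes the summed reads ran from 1 to 398 with a median of 27.0 in the 22 high cells, and from 0 to 16 with a median of 1.00 in the 60 low cells. Every high cell had at least 1 such read, against 38 low cells (63.3%, 49.9 to 75.4%), and 15 high cells but only 2 low cells had at least 10. Of the 123 genes 28 had a read in a high cell and 27 in a low cell. The 6 that passed the filter were all at least 2-fold higher, but they passed it through the high side, so their count is a description.

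Snora81 was the most abundant of them, with 0 to 319 reads and a median of 10.0 in high cells and 0 to 8 reads with a median of 0 in low cells. Its sum was 984 reads in 22 high cells (exact Poisson 95% interval 923 to 1047) and 39 in 60 low cells (27.7 to 53.3), a log2 ratio of 5.90 and of 5.67 with the highest cell of each side left out. Cell 147 alone held 32.4% of the high-side reads, and 8 high cells had none.

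Snora75 ran from 0 to 23 reads with a median of 3.50 in high cells and from 0 to 2 with a median of 0 in low cells. It was detected in 15 of 22 high cells (68.2%, 45.1 to 86.1%) and in 6 of 60 low cells (10.0%, 3.76 to 20.5%), and its log2 ratio was 4.76. AF357399 ran from 0 to 23 with a median of 4.00 in high cells and reached 1 read in 3 of 60 low cells. Its 142 reads against 3 gave a ratio of means of 129, with a counting interval of 43.3 to 633 that covers neither cells nor molecules. Without Snora81 the other 122 snoRNA genes still gave 463 reads in high and 99 in low cells, a log2 ratio of the means of 3.60.

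Snord22 (log2 ratio 3.43, mean 2.77 against 0.167), Snora7a (3.19, 1.27 against 0.050) and Snora64 (2.81, 0.955 against 0.050) lay lower but on the same side. The mean reads of the snoRNA hosts listed here were lower in high cells, and no value is given for Rps2, the host of Snora64. The log2 ratio was -0.70 for Eif4a2 (mean 2.32 against 3.82), -0.67 for Ncl (16.3 against 25.9) and -0.22 for Snhg1 (1.05 against 1.23), where the median of all genes was -0.33. These 3 hosts were nevertheless detected in more of the high cells, at 63.6% against 41.7% for Eif4a2, 95.5% against 88.3% for Ncl and 45.5% against 28.3% for Snhg1. In the separate thinning of all non-mitochondrial reads Rps16, which holds AF357399, was at -1.82 (0.273 against 1.22) and Rpl32, which holds Snora7a, at -0.20 (5.05 against 5.82).

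Across the 82 cells, Spearman's rho between mitochondrial share and summed snoRNA reads was 0.63, and within the 22 high cells it was 0.58. All cells were thinned to 1 depth, cells of 1 mouse or capture plate cannot be told apart, and the coefficients are descriptions only. Within the high cells rho was 0.21 for Malat1, -0.26 for summed core basal reads and -0.38 for genes detected.

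Malat1 and Xist, long noncoding RNAs known to stay in the nucleus, were also higher. Malat1 ran from 165 to 2738 reads with a median of 738.5 in high cells and from 15 to 1021 with a median of 291.5 in low cells, so the ranges overlapped, and its ratio of means was 2.29-fold (log2 1.20). Xist, which coats the inactive X chromosome, ran from 0 to 73 with a median of 10.5 in high cells and from 0 to 47 with a median of 1.00 in low cells (log2 2.59), and was detected in 21 of 22 and in 31 of 60 cells. Kcnq1ot1, an imprinted antisense RNA, had a mean of 6.41 against 2.57 (log2 1.29), which became -0.16 without cells holding 3 markers of another type. Meg3 went the other way (0.273 against 0.967, log2 -1.52), with 53.4% of its low-side reads in 1 cell. Of the 11 genes in this list only these 4 passed the filter, while Neat1 had 0.318 against 0.183 reads and did not.

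**Figure D3:**
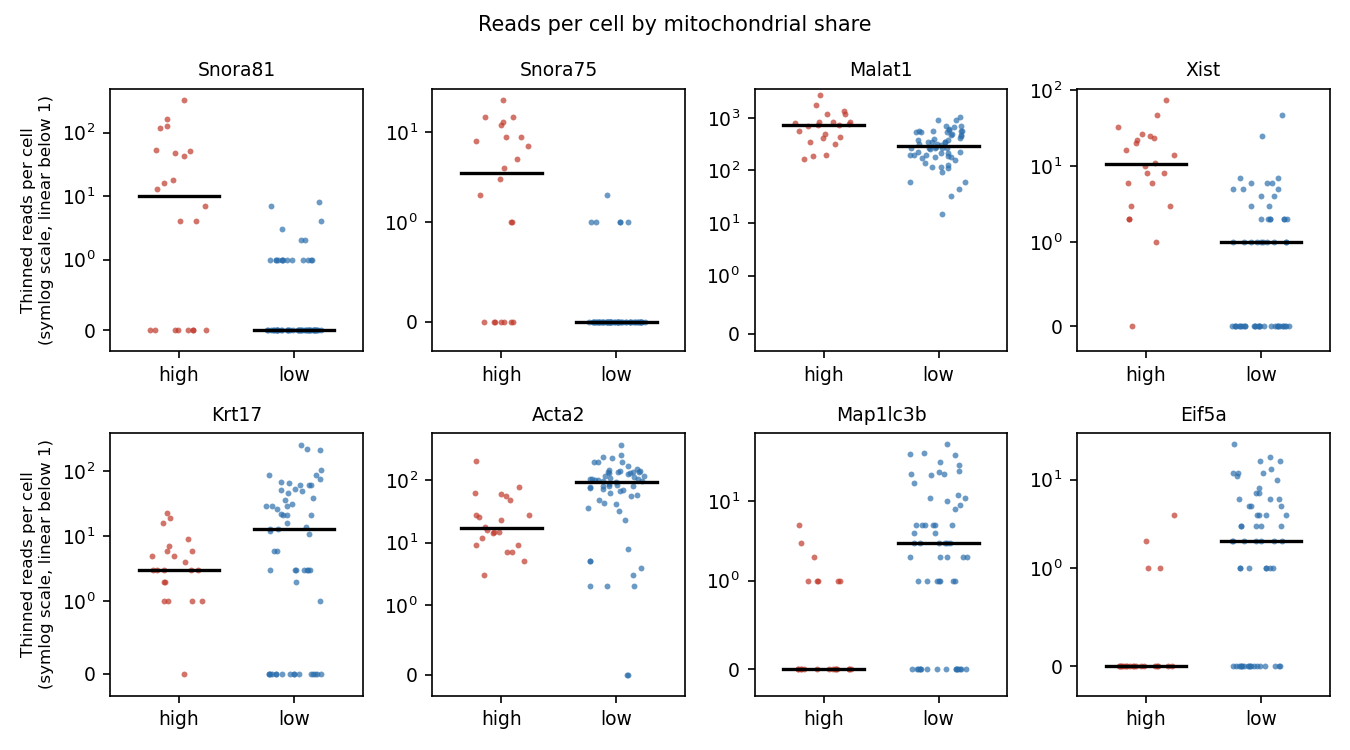
Thinned reads per cell (y axis, symmetric log scale that is linear below 1) of 8 genes in the 22 high and 60 low cells, 1 point per cell, with the median as a black line. Snora81, Snora75, Malat1 and Xist have higher medians in high cells, and Krt17, Acta2, Map1lc3b and Eif5a lower ones, with overlap of the ranges in each.

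Splicing regulators whose transcripts are known to hold introns back in the nucleus were higher at the median, though not under every choice of cells. Of 25 past the filter 8 were 2-fold higher (32.0% against 21.6% of all genes) and 3 lower, and the median log2 ratio was 0.37 (-0.36 to 1.06) against -0.33 for all genes. Without cells holding 3 markers of another type the list median was -0.29, where that of all genes was -0.90, and among cells numbered 176 to 237 it was 0. The largest were Tra2a (2.23, mean 1.55 against 0.250) and Srsf11 (1.99, 13.7 against 3.38), followed by Pnisr (1.74, 6.32 against 1.82) and Srsf6 (1.74, 2.41 against 0.650). Srsf6 was detected in 72.7% of high and 26.7% of low cells, and Srsf11 in 90.9% and 55.0%. Ogt was the lowest of the list, at -1.70 (0.455 against 1.70).

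Milk protein genes formed the other block of higher transcripts, a list put together after their values had been seen. The caseins and related genes are made in bulk by secretory luminal cells. Summed reads of 7 such genes ran from 0 to 87 with a median of 5.50 in high cells and from 0 to 4 with a median of 0 in low cells. They were detected in 14 of 22 high cells (63.6%, 40.7 to 82.8%) and 8 of 60 low cells (13.3%, 5.94 to 24.6%). Csn1s1, alpha-S1 casein, ran from 0 to 47 in high cells and from 0 to 3 in low cells (log2 5.30), Csn1s2a, another alpha casein, from 0 to 14 and from 0 to 1 (4.36), and Csn3, kappa casein, from 0 to 42 and from 0 to 4 (3.77). Csn2, beta casein, was found in 12 of 22 high cells, with 39 reads, and in 1 of 60 low cells, with 1 read. Wap had 1 read in 1 high cell and Lalba 3 reads in 3 high cells, and neither had any in low cells.

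These genes were found in cells with luminal markers, many of which also held markers of further cell types. At least 3 milk protein genes had a read in 10 of 22 high cells (45.5%, 24.4 to 67.8%) and in 0 of 60 low cells. Of these 10 cells, whose mitochondrial share ran from 35.0% to 89.7%, 9 also held at least 3 of the 17 luminal genes other than Csn3, which is on both lists. The same 10 cells took in all 4 high cells with at least 3 endothelial genes. They also took in all 4 with at least 3 fibroblast genes and both with at least 3 immune genes. Across the high cells Spearman's rho between milk protein reads and mitochondrial share was 0.030, and across all 82 cells it was 0.42. Without the cells that held 3 markers of another type, Csn1s1 and Csn3 had no read in the remaining 10 high cells and a mean of 0.0244 in the remaining 41 low cells (log2 -0.31), and Csn1s2a had a mean of 0.300 against 0.0244 (1.69). Of 8 luminal genes past the filter 4 were 2-fold higher (50.0% against 21.6% of all genes) and 1 lower (12.5% against 34.6%). Their median was 1.11, which was 0.35 without those cells. All 12 high cells left out held at least 3 of the 18 luminal genes. A fall of these genes, Csn3 among them, was therefore built into that choice. Csn3, Areg (2.27), Pgr (1.57) and Prlr (1.38) were higher, and Ly6d (-3.78) was lower. Areg, an epidermal growth factor receptor ligand, had reads in 9 high cells and in 1 low cell, and Prlr, the prolactin receptor, in 11 and 6. All reads of Ly6d and Areg on the low side and 94.2% of those of Prlr came from cell 130, and the keratins Krt8 (0.03) and Krt18 (-0.26) hardly differed in mean.

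Spp1, osteopontin, ran from 0 to 30 with a median of 0 in high cells and from 0 to 1 in low cells (log2 5.20, detected in 9 and 5 cells), and its ratio was -0.57 without the cells holding 3 markers of another type. Wfdc18, a whey acidic protein relative, had 73 reads in 12 high cells and 3 reads in 2 low cells, a ratio of means of 66.4 with a counting interval of 21.8 to 329. Unlike the caseins it stayed at a log2 ratio of 4.75 without those cells.

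The other genes named as higher differ in function. All 12 were picked for their ratio and for reads in at least 40% of high cells. Their ratios and detection shares are therefore descriptions. Iigp1, an interferon-induced GTPase, had a mean of 4.95 against 0.217 reads (log2 4.00) and was found in 13 and 7 cells. Without cells holding 3 markers of another type it had a mean of 0.300 against 0.0976 (log2 1.02). Col11a1, a fibrillar collagen chain, was found in 19 of 22 high cells (86.4%, 65.1 to 97.1%) and 15 of 60 low cells (25.0%, 14.7 to 37.9%), at 0 to 59 and 0 to 14 reads (log2 3.49). Ddr2, a collagen receptor, had 6.77 against 0.350 (3.93), with 45.0% of the high-side reads in cell 134 and 81.0% of the low-side reads in cell 151. Mcm4, a subunit of the replicative helicase, had 3.14 against 0.217 (3.35), and Ptprb, an endothelial phosphatase, 2.18 against 0.133 (3.29), and without those cells it had 1 read in 10 high cells and none in 41 low cells.

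The 12 genes named as most reduced had low-side means between 2.20 and 8.17 reads and high-side means between 0.0909 and 0.773. Map1lc3b, the autophagosome protein LC3B, ran from 0 to 5 reads with a median of 0 in high cells and from 0 to 51 with a median of 3.00 in low cells (log2 -3.40), and was detected in 8 of 22 (36.4%, 17.2 to 59.3%) and 44 of 60 cells (73.3%, 60.3 to 83.9%). Eif5a, a translation elongation factor, ran from 0 to 4 and from 0 to 25 (log2 -3.21), detected in 4 of 22 (18.2%, 5.19 to 40.3%) and 42 of 60 cells (70.0%, 56.8 to 81.2%). Both were chosen for such a contrast, so the detection shares are a description.

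Eef2, which moves the ribosome along mRNA, had a mean of 0.182 against 2.80 (log2 -3.36). Lgals1, galectin-1, had 0.409 against 6.43 (-3.68), S100a1, a calcium-binding protein, 0.273 against 4.10 (-3.49), and Cct7, a subunit of the cytosolic chaperonin, 0.364 against 5.00 (-3.46). Among mitochondrial proteins, Mdh2, the malate dehydrogenase of the citric acid cycle, ran from 0 to 6 and from 0 to 71 reads (0.773 against 7.52, -3.13), Ucp2, an inner-membrane carrier, had 0.591 against 6.53 (-3.26), and Mrpl42, of the mitochondrial ribosome, 2 reads in high and 132 in low cells. For Mrpl42 the low side was 24.2-fold higher per cell, with a counting interval of 6.57 to 202.

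Rsu1, a focal adhesion protein (0.182 against 3.15, -3.53), Lrrc8a, a volume-regulated anion channel subunit (0.227 against 2.48, -2.98), and 9530068E07Rik (3 reads in high and 209 in low cells) complete the 12. A second random thinning named 10 of the same 12 genes among the higher but only 4 of the 12 among the lower, namely Lgals1, Map1lc3b, Cct7 and Mdh2. The places went to 12 of 334 eligible genes in the higher and of 369 in the lower direction. All 12 lower genes kept a negative ratio in every alternative run, and 7 of them were within 2-fold when log2(reads + 1) was averaged per cell.

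Core basal genes were lower as a group. Their summed reads ran from 21 to 528 with a median of 93.5 in high cells and from 1 to 896 with a median of 335 in low cells. All 11 had a ratio below 0, 5 were 2-fold lower (45.5% against 34.6% of all genes) and none 2-fold higher, and the median was -0.97 (-2.43 to -0.40). Krt17 ran from 0 to 23 with a median of 3.00 in high cells and from 0 to 253 with a median of 13.0 in low cells (log2 -2.53). Yet it was detected in 21 of 22 high and 44 of 60 low cells, so it was low rather than lost.

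The other core basal genes, the contractile genes among them, were lower to differing degrees. Acta2, smooth muscle actin, ran from 3 to 198 with a median of 17.0 in high cells and from 0 to 366 with a median of 93.5 in low cells (log2 -1.52). Myl9, a myosin light chain, was at -2.43 (3.05 against 16.9) and Cnn1, calponin, at -2.10 (4.18 against 18.2). Tagln, transgelin, was at -0.97 (37.0 against 72.4), with medians of 11.0 and 62.5 and 37.7% of its high-side reads in cell 125. Mylk, the myosin light chain kinase, was at -0.96, Myh11, smooth muscle myosin heavy chain, at -0.57, Krt5 at -1.15, Krt14 at -0.40, the chemokine gene Cxcl14 at -0.54 and Trp63, the basal lineage transcription factor, at -0.04. Krt14 was detected in all 22 high cells and in 55 of 60 low cells.

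Actin cytoskeleton genes were 2-fold lower about as often as all genes, in 6 of 18 (33.3% against 34.6%), and none was 2-fold higher. The median was -0.88 (-1.60 to -0.45), and -0.40 with log2(reads + 1) averaged per cell. Actb, beta actin, ran from 14 to 221 with a median of 56.5 in high cells and from 38 to 403 with a median of 118.5 in low cells (log2 -0.87). Tpm2, beta tropomyosin, was lowest at -2.01 (5.18 against 21.2), and Actn1, alpha actinin, highest at 0.32 (7.86 against 6.27).

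Nuclear genes of the respiratory chain were lower while the mitochondrial genome's own transcripts, by the way the cells were chosen, made up more of the library. The 100 respiratory chain genes summed to between 18 and 348 thinned reads with a median of 63.5 in high cells, and to between 37 and 306 with a median of 157 in low cells. Of 59 past the filter 2 were 2-fold higher and 40 lower, which is 67.8% against 34.6% of all genes, and the median was -1.44 (-1.94 to -1.06). It was -0.81 with a pseudocount of 1 read and -0.49 with log2(reads + 1) averaged per cell, where the medians of all genes were -0.19 and 0.06. Complex I, the NADH dehydrogenase, stood out, with 25 of 29 genes 2-fold lower and a median of -1.99 (-2.27 to -1.35), which was -0.92 and -0.49 under the same alternatives. Ndufa4, a small subunit first assigned to complex I, had a mean of 1.55 against 5.45 (log2 -1.75) and was detected in 54.5% of high and 81.7% of low cells. Ndufs7 had 63 reads in 14 low cells and none in high cells. Taken as 3 counts over the high cells, a count of 0 leaves room for about 13.6% of cells with a read, and the exact limit is higher. Ndufa11 was the 1 gene of complex I above 0 (0.80), with 86.2% of its high-side reads in cell 166. Short genes were lower as a class too. Protein-coding genes with exons under 1000 bases in all had a median of -1.31, with 139 of 237 2-fold lower. How far exon length takes part in the ratios of respiratory chain genes was not tested.

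The other complexes were less even. ATP synthase genes were 2-fold lower in 7 of 12 (58.3% against 34.6% of all genes, median -1.03). They ran from Atp5o at -2.56 (0.545 against 3.70) to Atp5h at 0.48. Complex IV, cytochrome oxidase, was lower in 4 of 8 (50.0%, median -0.83), from Cox7a2l at -2.58 to Cox5a at 1.63. Complex III was lower in 2 of 7 (28.6%, median -0.34), from Uqcrc1 at -2.89 to Uqcrfs1 at 0.46. Within complex II, succinate dehydrogenase, the members went in different directions. Sdha, its catalytic subunit, ran from 0 to 26 with a median of 3.00 in high cells and from 0 to 25 with a median of 0 in low cells (log2 1.85), detected in 19 of 22 (86.4%, 65.1 to 97.1%) and 13 of 60 (21.7%, 12.1 to 34.2%). Sdhb, its iron-sulfur subunit, was at -2.04 (0.591 against 2.75) and Sdhc, a membrane anchor, at -1.66.

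Genes of the mitochondrial ribosome were 2-fold lower in 10 of 15 (66.7% against 34.6% of all genes) and higher in 3 (20.0% against 21.6%), with a median of -1.91. The extremes were Mrpl42 at -3.59 and Mrpl58 at 4.48, the latter with all its 317 high-side reads in cell 125 and at -2.70 without that cell. Mitochondrial upkeep genes were lower in 6 (42.9%) and higher in 1 (7.14%) of 14 (median -0.72). They ran from Vdac2, a channel of the outer membrane (-2.68, 0.136 against 1.42), to Vdac3, its relative (1.64, 1.09 against 0.283). Rpl and Rps genes took a median of 0.917% of non-mitochondrial reads in high cells (0.514 to 2.27%, range 0.0946 to 4.76%) and 1.96% in low cells (1.59 to 2.14%, range 0.380 to 5.09%). These intervals overlap. Their pooled shares were 1.56% (1.54 to 1.59%) and 1.94% (1.93 to 1.95%), with intervals that cover read counting only and not the spread among cells. Of 55 such genes past the filter in a separate thinning of all non-mitochondrial reads, 42 were below 0 and 14 were 2-fold lower, with a median of -0.55 against -0.33 for all genes.

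Among the mitochondrial genome's own reads the mixture was much alike on both sides. mt-Cytb took a median of 34.0% of them in high cells and 36.4% in low cells, mt-Co1 18.6% and 18.4%, mt-Nd1 13.2% and 13.9%, and the large ribosomal RNA mt-Rnr2 9.41% and 8.11%. Of 15 such genes only mt-Nd3 had rank intervals that did not overlap, at 0.135% (0.0895 to 0.158%) and 0.0506% (0.0411 to 0.0631%).

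Genes of the endoplasmic reticulum, where secreted and membrane proteins fold, were lower too. Of 19 past the filter none was 2-fold higher and 11 were lower (57.9% against 34.6%), with a median of -1.84 (-2.12 to -0.19). Hspa5, the chaperone BiP, ran from 0 to 41 with a median of 7.5 in high cells and from 0 to 100 with a median of 10.5 in low cells (log2 -1.14). Herpud1, of protein degradation, was at -2.95 and Pdia6, a disulfide isomerase, at -2.82 (0.364 against 3.18), while Hsp90b1, another chaperone, was at 0.18 (14.2 against 12.5). Ddit3, the stress factor CHOP, was lowest at -3.20 with 71.6% of its low-side reads in 1 cell, and Xbp1 was highest at 0.99 with 87.5% of its high-side reads in 1 cell.

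**Figure D4:**
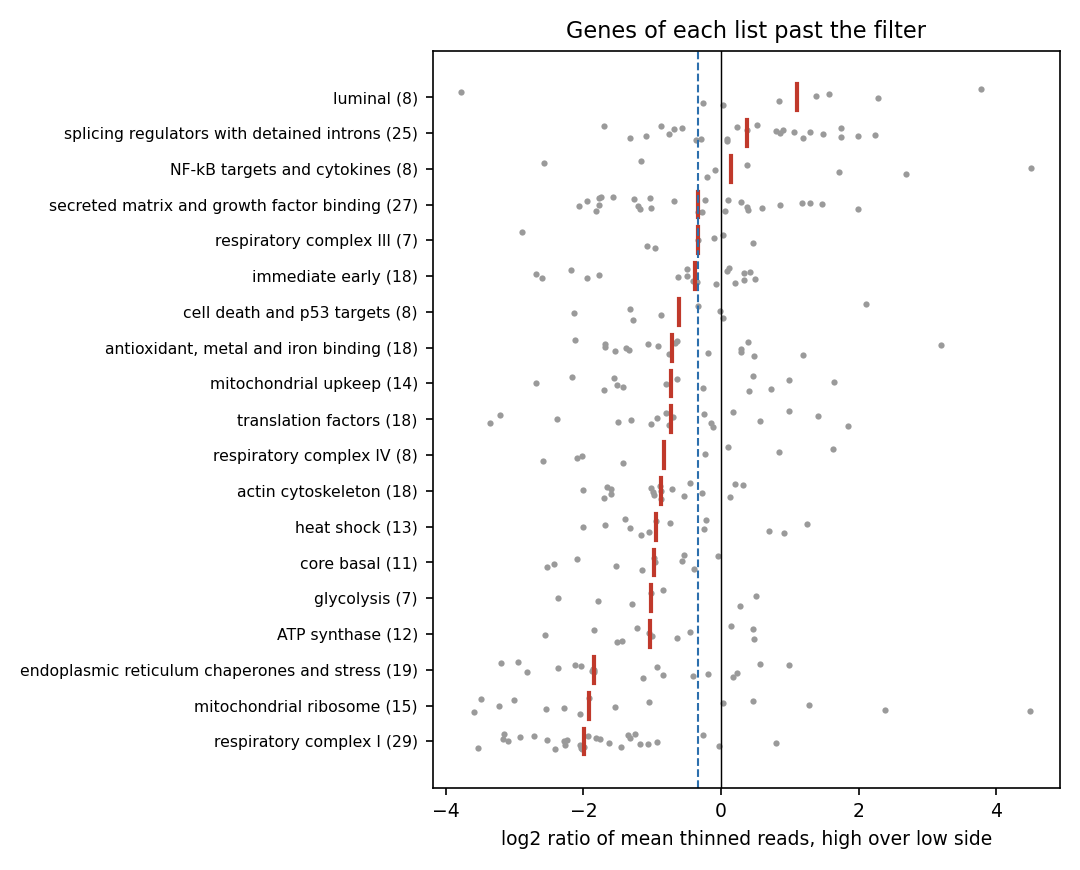
log2 ratio of mean thinned reads, high over low side (x axis), for the genes past the filter in each list of at least 6 such genes, whose number is in parentheses. Grey points are genes, red bars list medians and the blue dashed line the median of all 3404 genes at -0.33; complex I lies lowest with a median of -1.99 and luminal genes highest with 1.11.

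Glycolysis genes were 2-fold lower in 4 of 7 (57.1% against 34.6% of all genes, median -1.02). They ran from Tpi1 at -2.37 to Eno1 at 0.50, the latter with 87.5% of its high-side reads in cell 150. Heat shock genes were 2-fold lower in 6 of 13 (46.2%, median -0.95). They ran from Hspb8 with a mean of 0.636 against 2.85 to Dnaja1 at 1.25, with 75.1% of its high-side reads in cell 139. Translation factors were lower in 6 of 18 (33.3%, about as often as all genes, median -0.72) and higher in 2 (11.1% against 21.6%). Eif4g2, of cap-independent initiation, was 1 of the higher ones (35.1 against 13.2, log2 1.41). The other, Eef1b2 (1.85), took 86.4% of its high-side reads from cell 166. Antioxidant, metal and iron binding genes were lower in 7 (38.9%) and higher in 2 (11.1%) of 18 (median -0.71). They ran from Srxn1 at -2.13 to Gpx1 at 3.19, whose high-side reads came to 92.3% from cell 161. Secreted matrix and growth factor binding genes were lower in 12 (44.4%) and higher in 4 (14.8%) of 27 (median -0.33). The lowest was Fn1 at -2.06, with 98.7% of its low-side reads in cell 151. The highest was Lamb2 at 1.99, with 90.0% of its high-side reads in cell 135.

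Immediate early genes, which switch on within minutes of a stimulus, were lower in 5 of 18 and higher in none (27.8% against 34.6% of all genes, median -0.38). Fos had means of 28.5 and 30.0 and medians of 11.0 and 11.5, and Egr1, the highest, means of 21.3 and 15.1 and medians of 10.0 and 4.00. The lowest was Klf2 (-2.69), with 79.4% of its low-side reads in 1 cell. Cell death and p53 target genes were lower in 3 (37.5%) and higher in 1 (12.5%) of 8 (median -0.61). They ran from Trp53 at -2.14 to Gadd45b at 2.10, which took 89.1% of its high-side reads from cell 147. NF-kB targets and cytokines were lower in 2 (25.0%) and higher in 3 (37.5% against 21.6% of all genes) of 8 (median 0.14). They ran from Birc3 at -2.57 to Il6 at 4.51, with 84.0% of its high-side reads in cell 120. Several of these extremes turned when cells holding 3 markers of another type were left out, to -1.18 for Cox5a, -2.06 for Vdac3, -1.67 for Lamb2 and -1.78 for Gadd45b, while Il6 then had no read in high cells. Fos and Egr1 were then at -2.40 and -1.28, and Sdha at 2.96. The list medians of immediate early, cell death and antioxidant genes were then -1.58, -1.61 and -1.39. Those of ATP synthase and complex I were -1.98 and -2.75, where that of all genes was -0.90. The medians of the endoplasmic reticulum, heat shock, translation factor and NF-kB lists rose, to -1.61, -0.85, -0.70 and 0.24.

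The ratio followed the exon length of the gene model, which the choice of cells did not use. Among protein-coding genes the median log2 ratio was -1.31 (-1.59 to -1.06) for 237 genes under 1000 bases, -0.98 for 603 genes of 1000 to 2000 bases, -0.43 for 1142 of 2000 to 4000, 0.06 for 1042 of 4000 to 8000 and 0.23 (0.02 to 0.43) for 279 of 8000 bases or more. Under 1000 bases 139 of 237 genes were 2-fold lower and 28 higher, and at 8000 bases or more 48 of 279 were lower and 83 higher. Without cells holding 3 markers of another type the order was the same, from -2.08 to -0.15, and with log2(reads + 1) averaged per cell it ran from -0.32 to 0.30.

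**Figure D5:**
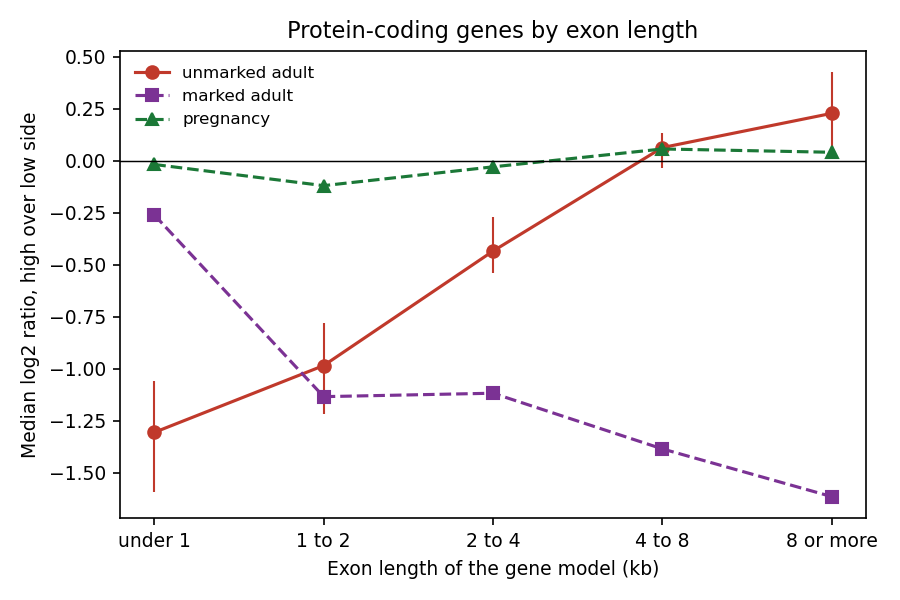
Median log2 ratio of mean thinned reads, high over low side (y axis), of protein-coding genes past the filter by exon length of the gene model (kb, x axis), with 95% rank intervals as vertical lines for unmarked adult cells. The unmarked line climbs from -1.31 to 0.23, while the marked line runs from -0.26 to -1.61 and the pregnancy line stays between -0.12 and 0.06.

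High cells were not spread evenly over the cell numbers in the titles, whose meaning the labels do not give. Of 52 usable cells numbered 113 to 175, 18 were high, and of 30 numbered 176 to 237, 4 were high. Compared within 113 to 175 (18 against 34 cells) the log2 ratio was 5.54 for Snora81, 1.06 for Malat1, 2.27 for Xist, -2.46 for Krt17 and -3.53 for Map1lc3b. Within 176 to 237 (4 against 26 cells) it was 6.67, 1.90, 2.40, -2.18 and -2.77 for the same genes. Spp1 and Mcm4 were higher only in the former range, at 5.45 and 3.32 against -0.82 and -1.11, and Ddr2 and Ptprb had no read on either side in the latter. Col11a1 was at 3.28 and 0.43.

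The same cut was applied to the cells the rule did not use. Among 97 marked adult cells it gave 13 high and 84 low cells, and among 75 cells from pregnancy 16 and 59. In marked cells 663 of 2773 genes (23.9%) were 2-fold higher and 1444 (52.1%) lower, with a median log2 ratio of -1.13, and a high cell showed a median of 862 genes (641 to 1072) against 1571 (1385 to 1720). In pregnancy 690 of 3650 genes (18.9%) were higher and 641 (17.6%) lower, with a median of 0.01, and 2008 genes (1528 to 2251) were seen against 1901 (1806 to 2041). The number of detected genes thus stood in a different order in the marked cells, a difference that was not tested.

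snoRNA reads were higher in the high cells of both other sets. The sums over 123 genes had medians of 8.00 against 2.00 reads in marked cells and 16.0 against 4.00 in pregnancy, and highest values of 55 against 19 and of 222 against 19. Snora81 had log2 ratios of 3.02 and 3.30 in the marked and pregnancy cells, Snora75 of 4.12 and 4.25, and AF357399 of 3.72 and 4.34, and the lowest of these with the highest cell of each side left out was 2.64.

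Other genes recurred in part. Of the 12 genes named as higher, 7 were above 0 in marked cells and 11 in pregnancy, where 35.2% and 50.1% of all tested genes were above 0, and of the 12 named as lower, 9 and 11 were below 0, where 64.8% and 49.9% of all genes were. Malat1 had a ratio of 0.03 in marked cells and 0.35 in pregnancy, and Xist -1.83 and 0.08. Set against the medians of all genes, -1.13 and 0.01, Malat1 lay above both and Xist below the former. Median Malat1 reads were 340 against 315.5 in marked cells and 360 against 273 in pregnancy. Csn3 and Csn1s1 had higher means again, with Csn3 at 3.15 and 4.79 and Csn1s1 at 1.84 and 5.66. Cell 71, however, held 87.1% of all milk protein reads in high pregnancy cells. In marked cells only 1 milk protein gene passed the filter, and median milk protein reads were 0 on both sides. The high marked cells had 39 such reads in all, 56.4% of them in cell 66. Col11a1 was at 3.55 and 0.08, and Mdh2 at 2.62 and -0.73.

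Core basal genes had medians of -0.94 in marked cells and -0.92 in pregnancy, against -1.13 and 0.01 for all genes, so that in marked cells they did not lie below the rest. The respiratory chain stood at -1.14 and -0.04, and endoplasmic reticulum genes at -1.38 and -0.40. By exon length the medians ran from -0.26 under 1000 bases to -1.61 at 8000 or more in marked cells, and stayed between -0.12 and 0.06 in pregnancy.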

How the data were processed

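Counts are those the authors deposited, 1 table per cell: read pairs mapped to mm10 with Subread 1.5.0, per the submitters' processing notes, and assigned to RefSeq genes with featureCounts, without molecular identifiers, so intervals cover counting error only. A series-wide table held identical values and was not used. Of 27179 gene IDs 25275 matched a RefSeq symbol (GRCm38). Strand handling is not given in the sources used here. The authors' own filters, on assigned read pairs and detected genes per cell, were not applied. Their read-pair minimum for adult basal cells lies above the median of high cells (28060 outside mitochondrial and Rpl/Rps genes). It lies below that of low cells (97621), so it would take out most high cells and keep most low cells.

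The 15 mitochondrial and 124 Rpl/Rps genes were set apart, and cells thinned without replacement to 10000 reads (numpy 2.4.6, 1 seed). Ratios, shares and intervals (exact Clopper-Pearson and Poisson; ranks for medians; scipy 1.17.1) were computed from thinned counts. With 1 sample a side no test was run. Named genes had a mean of at least 2 reads and detection in at least 40% of cells on the higher side, and 4 ratios (all cells; without the highest cell of either side; without both) of 1 sign. They were ranked by the smallest, 12 per direction. Members and extremes of each list, and a few marker, host and control genes chosen after their values were seen, are named besides. The members and lists were chosen with earlier results of these data known. Doublets were not called (the authors viewed captured cells under a microscope). Thinning and ratios were checked on simulated counts in which all cells of a side shared 1 profile. That check does not cover ratios carried by single cells.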

Additional observations from a re-analysis of the deposited data

Results flagged for a closer look

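The 43 unmarked adult cells under the read minimum were left out of every comparison, yet they carried basal transcripts: the 11 core basal genes took 1.63% of their 154232 read pairs outside mitochondrial and ribosomal protein genes (exact 95% interval 1.57 to 1.70%), above the limit that a count of 0 allows. The pooled share was 1.80% in the 22 high cells and 3.40% in the 60 low cells. The median mitochondrial share of these 43 cells was 48.7%.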

How the results depend on the processing

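No paired analysis was possible because each side is 1 sample, and title numbers name cells. The counts of 2-fold higher and lower genes (736 and 1178) became 406 and 578 with a pseudocount of 1 read, 90 and 46 as means of log2(reads + 1), 1662 and 3524 without a filter on the mean, and 241 and 216 at a mean of 2 reads. They were within 1.5 times of the main counts under another thinning seed, no thinning, a minimum of 20000 reads, a trimmed mean of M values (863 and 1021, a shift of -0.23 log2), a wider gap between the sides, either range of title numbers, without cells with 3 other-type markers and without unnamed IDs. They were also within 1.5 times with each gene's highest cell of each side left out (568 and 1253) and without snoRNA genes (730 higher), both chosen after seeing the data. Without thinning a low cell had a median of 2676 genes. The median of respiratory chain reads in high cells was 33.0 in the 4 cells numbered 176 to 237. Of 336 recomputed ratios of the 24 named genes 321 stayed past 2-fold, 11 did not pass it, and 4 turned: Spp1 (-0.82 in cells 176 to 237 and -0.57 without other-type cells), Csn1s1 (-0.31 without those cells) and Mcm4 (-1.11 in cells 176 to 237). The cause was not tested. At 10000 reads a high-side mean of 0.0909 is 2 reads in 22 cells. The respiratory chain median (-1.44) was -0.81 with a pseudocount of 1 read and -0.49 as a mean of log2 values, and -2.01 and -2.31 with a wider gap between the sides and without other-type cells.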
